A study of Mus musculus with 4 samples.

Results

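The proteasome is the barrel-shaped protease that degrades ubiquitin-tagged proteins in the cytosol and nucleus. Its transcripts were followed here in the globus pallidus, a GABAergic nucleus of the basal ganglia, of male C57BL6 mice. The genes were taken by symbol, as every gene whose single annotated symbol is Psm followed by a letter from a to g and a number, and 47 of 19087 genes on the array met this rule. They fell into 19 core genes (Psma and Psmb), 20 cap genes (Psmc and Psmd) and 8 activator or assembly genes (Psme, Psmf and Psmg). Psme2 was not analysed here. On each of 4 Agilent arrays of 60-mer probes, RNA from a mouse given cocaine, 15 mg/kg on days 2, 3 and 4 of a conditioned place preference protocol, was set against RNA from a mouse given saline on those days. The cocaine mice had a low preference score for the drug-paired compartment, so an effect of the drug cannot be told apart from one of the score. Cocaine RNA carried Cy5 on arrays 1 and 3 and Cy3 on arrays 2 and 4. The 4 hybridizations are described as independent, and a separate animal is coded for every channel.

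The core is a stack of rings, with alpha subunits (Psma) outside and beta subunits (Psmb) inside, and only a few beta subunits cut peptides. The cap sits on the core, where a ring of ATPases (Psmc) unfolds the substrate and non-ATPase subunits (Psmd) recognise ubiquitin, remove it and hold the lid together. In cells exposed to interferon, inducible beta subunits replace the constitutive catalytic ones and favour peptides for antigen presentation. In neurons the proteasome also turns over synaptic proteins.

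The authors deposited 1 ratio per spot and array, which behaved as log2 ratios with a strong dye bias. Pearson correlations over 45018 spots lay between -0.83 and -0.96 for arrays of opposite dye orientation. They were 0.87 and 0.90 for arrays of the same orientation. The columns were therefore read as already turned into 1 treatment direction. Cocaine over saline is the likely direction, from the order in which the design text names the treatments, and every sign below reverses if it was saline over cocaine. Each array was normalised by loess against a per-spot dye bias, the average from both orientations. This ties the 4 values of a gene, because the mean of arrays 1 and 3 then lies close to the mean of arrays 2 and 4 (median gap 0.0039 over genes). The ratios carry no levels, so subunits could not be ranked by abundance. Of 10 pallidal neuron markers all 10 had a spot above background, as did all 8 measured markers of the neighbouring striatum. That limit is set on the dye bias, and 13864 of 19087 genes passed it, among them all 47 proteasome genes. Passing it therefore does not show that a gene is expressed or which tissue was taken.

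No proteasome gene passed the test. With limma and Benjamini-Hochberg adjustment over all 30452 features, 0 of 47 genes had an adjusted p under 0.05, against 0% of all features, and every adjusted p was 0.9995. Before adjustment 529 features and 1 of the 47 genes had a limma p under 0.05. Most of the genes nevertheless had a mean log2 ratio below 0. This held for 34 of 47, or 72.3%, against 53.5% of the 13864 genes above background. Among genes with a strong dye bias (over 1 on the log2 scale, a stand-in for bright spots) the share below 0 was 59.9%, and 23 of the 33 proteasome genes in that range were below 0. The median over the 47 genes was -0.053, against -0.0054 over the genes above background and -0.020 over the genes with a strong dye bias. The median SE of a single proteasome gene was 0.066 (n = 4 arrays). In tissue of mixed cells, fewer cells of a type and less RNA per cell cannot be told apart.

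**Figure D1:**
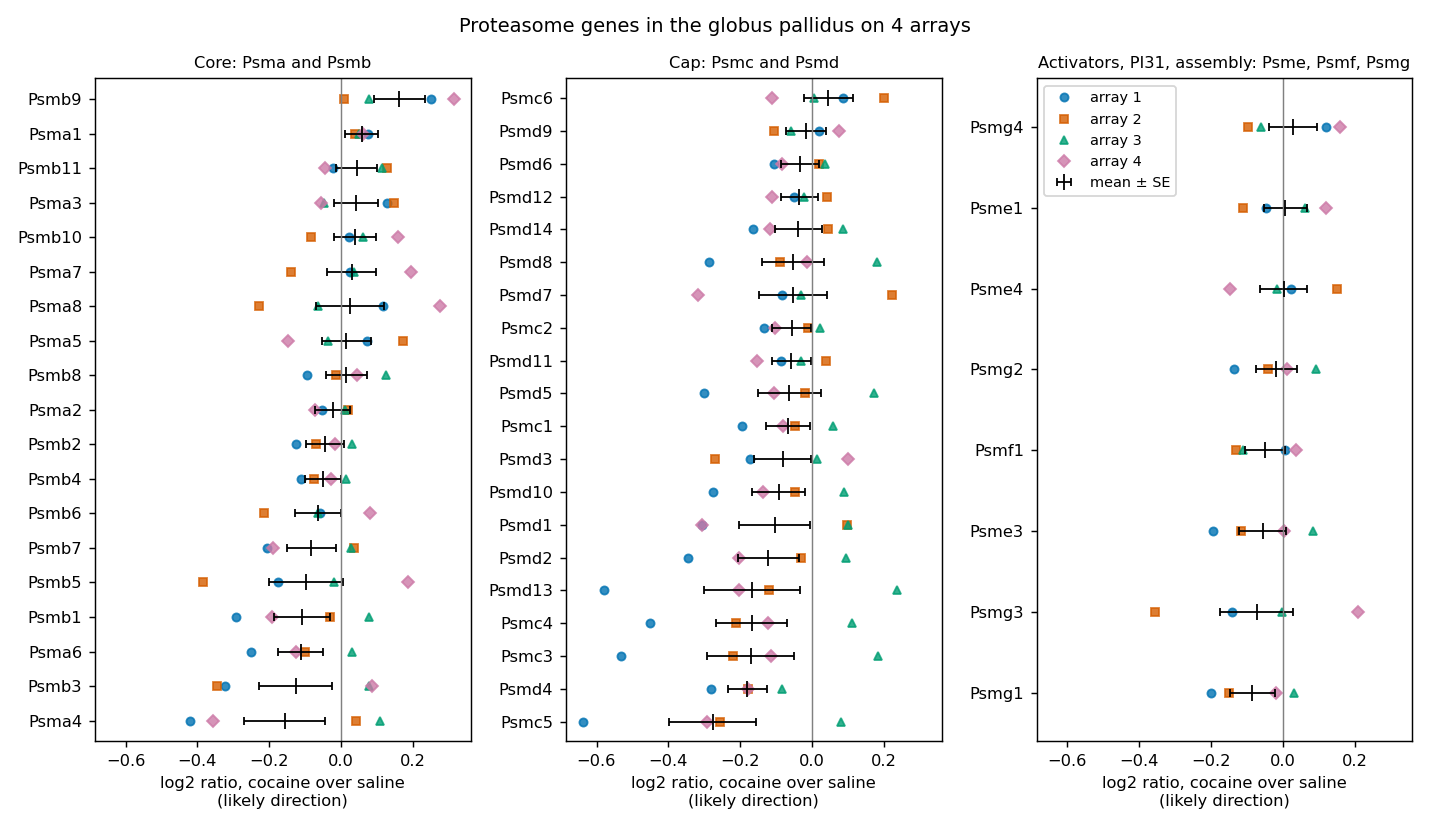
Log2 ratio of cocaine over saline (likely direction) for the 47 proteasome genes, in 3 panels for core, cap, and activator or assembly genes, sorted by mean. Coloured points are the 4 arrays, and black bars give the mean and SE from limma. In the cap panel 19 of 20 means lie left of 0 and array 1 (blue circles) lies farthest left for most genes, while the core panel is split 10 to 9.

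The cap showed the most one-sided means. Of its 20 genes 19 had a mean below 0, with a median of -0.065 and a range from -0.28 to 0.046. In the ATPase ring 5 of 6 genes were below 0 (median -0.12), and so were all 14 Psmd genes (median -0.061). These counts stayed at 19 of 20 with each array centred on its median, with values as deposited, and with a wider loess span. The dye bias cancels in a mean over both orientations, so these settings hardly change it and the agreement says little. The counts rested partly on array 1. Without it 13 of 20 cap genes and 9 of 14 Psmd genes were below 0, and the cap median was -0.0092. Without array 3 that median was -0.16. Markers of glia were also below 0 in most genes, but so were 6 of 10 pallidal neuron markers and 53.5% of genes above background. Among glia this held for 6 of 7 oligodendrocyte markers (median -0.11, with -0.16, -0.098, -0.037 and -0.054 on arrays 1 to 4). It also held for 4 of 6 astrocyte markers (median -0.052, with -0.073, -0.027, -0.017 and -0.061). The part of glia in the cap values was not tested.

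Psmd4, the cap subunit that binds ubiquitin chains, was the single proteasome gene with an unadjusted p under 0.05 in the values as normalised here. Its log2 ratios were -0.28, -0.18, -0.084 and -0.18 on arrays 1 to 4. All 4 values were below 0, and it was the single proteasome gene for which this held, against 5.96% of genes above background that were below 0 on 4 of 4 arrays. The mean was -0.18 (SE 0.055), or 1.13-fold lower in cocaine mice, with an unadjusted limma p of 0.021. An unadjusted p under 0.05 on the lower side occurred in 0.671% of all genes, and on the higher side in 0.849%, with 0 of the 47 genes on that side. Its 2 spots had means of -0.24 and -0.12, and without single arrays its mean lay between -0.23 and -0.13. Its unadjusted limma p was 0.16 with values as deposited, 0.089 with arrays centred on their medians and 0.12 without array 1. The number of proteasome genes with an unadjusted limma p under 0.05 was 0 with values as deposited, 0 without array 1 and 9 without array 3. The shares of all features in these settings were 1.29%, 0.969% and 4.91%, in that order.

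Among the ATPases, Psmc5 had the lowest mean of all 47 genes. It stood at -0.64, -0.26, 0.082 and -0.29 on arrays 1 to 4. Array 3 was above 0 and the others were below, with array 1 the lowest. Under the tie of the loess a low array 1 goes with a high array 3, here and in the genes below. These are not separate observations. The mean was -0.28 (SE 0.12, unadjusted limma p 0.068), or 1.21-fold lower in cocaine mice. Without array 1 it was -0.10 and without array 3 it was -0.49. Its 2 spots had means of -0.40 and -0.15, so part of the value came from 1 probe.

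Psmc4, another ATPase, was likewise lowest on array 1 and highest on array 3, with -0.45, -0.21, 0.11 and -0.12. Its mean was -0.17 (SE 0.099, unadjusted limma p 0.15), which was -0.029 without array 1 and -0.30 without array 3, and its 2 spots were close together at -0.18 and -0.15. Psmc3 stood at -0.53, -0.22, 0.18 and -0.11, a similar spread around a mean of -0.17 (SE 0.12). Psmc1 and Psmc2 had means of -0.067 and -0.057, near their SEs of 0.061 and 0.054.

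Psmc6 was the exception in the cap. Its log2 ratios were 0.087, 0.20, 0.0056 and -0.11, above 0 on arrays 1 to 3 and below 0 on array 4. The mean was 0.046 (SE 0.068), and it became -0.0062 without array 2. It was the single ATPase that was not below 0 on array 1.

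The Psmd genes differed in size more than in sign. Psmd13, a lid subunit, stood at -0.58, -0.12, 0.24 and -0.20, which gave a mean of -0.17 (SE 0.13). Psmd2 and Psmd1, the large scaffold subunits of the base, had means of -0.12 (SE 0.086) and -0.10 (SE 0.10). Both were lowest on arrays 1 and 4, with Psmd1 at -0.31 on each of them, 0.097 on array 2 and 0.099 on array 3. Psmd14, the deubiquitinase that removes ubiquitin at the cap, had a mean of -0.038 (SE 0.065), and its lid partner Psmd7 had -0.053 (SE 0.095). Psmd5, Psmd9 and Psmd10, chaperones of cap assembly, had means of -0.064, -0.018 and -0.093. The lid subunits Psmd3, Psmd6, Psmd8, Psmd11 and Psmd12 lay between -0.082 and -0.034. The largest of the 14 means, that of Psmd4, was 1.13-fold from equal.

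Promoter sequences were searched for motifs chosen after the log2 ratios were seen. ETS factors bind the core motif CGGAAG, and the 250 bases before each start site were searched for it on both strands in the RefSeq promoter table (build GRCm38.p6). It was found, with no test of enrichment, in 12 of the 17 cap genes with an entry, in 4 of 15 core genes and in 3 of 7 activator or assembly genes. In all 19 of 39 proteasome genes (48.7%) held it, against 19.2% of 17492 protein-coding genes and 15.3% of all 27025 genes in the table. The runs below show all the sites of the ATPase genes that hold it, then those of Psmd4, the gene with the smallest p, and of Psmd2 and Psmd13. Each is written in the orientation of the motif, which is in capitals, with 10 bases on either side.
Psmc1 (chr12:100110092-100110117, minus strand): aaacaggctaCGGAAGcctatcggga
Psmc1 (chr12:100110130-100110155, minus strand): ccggacagaaCGGAAGtaactttaaa
Psmc1 (chr12:100110164-100110189, minus strand): tcgccaccgcCGGAAGtgcatccacc
Psmc2 (chr5:21785181-21785206, minus strand): agccccatccCGGAAGtgctcactgg
Psmc2 (chr5:21786713-21786738, minus strand): tcttccccacCGGAAGtagctccgcg
Psmc6 (chr14:45329715-45329740, plus strand): gcgggccagcCGGAAGgggcggagcc
Psmd4 (chr3:95042723-95042748, minus strand): acagctgttcCGGAAGctgctgcgaa
Psmd2 (chr16:20651616-20651641, minus strand): tcctccagacCGGAAGcgccctgcgg
Psmd13 (chr7:140882293-140882318, plus strand): agaagtttagCGGAAGtcaagaacgc

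The motif did not follow the log2 ratios within the cap. The 12 cap genes with it had a median of -0.057 and included Psmc6, the one gene above 0. The 5 without it, among them Psmc4 and Psmc5, had a median of -0.093. A match is a description of the letters and no evidence of binding.

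Psmd4 is shown in full because it is the gene with the smallest p. Its 250 bases upstream of the start site lie on the minus strand at chr3:95042615-95042864 (GRCm38.p6). Capitals mark the ETS core, an NF-Y box (CCAAT, here on the opposite strand as ATTGG) and the core of an interferon-stimulated element, also on the opposite strand.
Psmd4: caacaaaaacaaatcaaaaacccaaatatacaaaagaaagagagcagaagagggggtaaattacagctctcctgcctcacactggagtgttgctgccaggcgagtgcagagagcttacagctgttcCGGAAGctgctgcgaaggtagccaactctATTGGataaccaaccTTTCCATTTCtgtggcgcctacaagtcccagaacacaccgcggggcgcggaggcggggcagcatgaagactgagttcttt

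The NF-Y box was present in 35.9% of the proteasome genes with a promoter entry and in 39.5% of protein-coding genes. The interferon-stimulated core was present in 3 proteasome genes (7.69%) and in 3.48% of protein-coding genes.

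The core as a whole was split. Of its 19 genes 10 had a mean below 0, or about the share of all genes, and the median was -0.024. Its parts differed in sign: 3 of 8 alpha genes, 7 of 7 constitutive beta genes (Psmb1 to Psmb7) and 0 of 4 inducible or thymic beta genes (Psmb8 to Psmb11) were below 0. These counts were the same with each array centred on its median, with values as deposited and with a wider loess span. Such settings hardly change a mean over both dye orientations. With the brightest spot of each gene 4 alpha genes were below 0. The counts also moved with single arrays. Without array 1 there were 6 alpha genes below 0, and without array 2 there were 5 alpha and 4 constitutive beta genes. Without array 3 there were 4 alpha and 2 inducible or thymic genes, and without array 4 there were 4 alpha genes. The difference between the parts was not tested, since no p is given over a list.

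The alpha ring gates the entry to the core. Psma4 had its lowest mean, at -0.16 (SE 0.11, unadjusted limma p 0.22). Its values were -0.42, 0.042, 0.11 and -0.36, below 0 on arrays 1 and 4 and above 0 on arrays 2 and 3, and its 2 spots had nearly equal means of -0.16 and -0.15. Without array 1 its mean was -0.025 and without array 3 it was -0.29. Psma6 stood at -0.25, -0.10, 0.029 and -0.13, with a mean of -0.11 (SE 0.063, unadjusted limma p 0.13). Psma1 was close to equal on all arrays, at 0.075, 0.039, 0.050 and 0.062 (mean 0.057, SE 0.046). The means of Psma2, Psma3, Psma5 and Psma7 lay between -0.024 and 0.042. Psma8, which is known as a testis form of the alpha ring, had values from -0.23 to 0.27 and a mean of 0.024 (SE 0.095).

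Among the constitutive beta genes, Psmb3 and Psmb1, both non-catalytic, had the lowest means. Psmb1 stood at -0.29, -0.030, 0.078 and -0.19 (mean -0.11, SE 0.077, unadjusted limma p 0.22). Its mean ranged from -0.22 without array 3 to -0.016 without array 1. Psmb3 averaged -0.13 (SE 0.10), with spots at -0.21 and -0.040. The catalytic subunits Psmb5 (chymotrypsin-like), Psmb6 (caspase-like) and Psmb7 (trypsin-like) had means of -0.098 (SE 0.10), -0.064 (SE 0.064) and -0.084 (SE 0.068). They did not follow a common array order. Psmb5 was at -0.17, -0.39, -0.020 and 0.19, lowest on array 2 and above 0 on array 4. Psmb6 was at -0.058, -0.21, -0.065 and 0.081, in the same order of arrays 2 and 4 as Psmb5. Psmb7 was at -0.21, 0.037, 0.027 and -0.19, lowest on arrays 1 and 4. Without array 2 the means of Psmb5 and Psmb6 were 0.060 and 0.040. Psmb2 and Psmb4 were at -0.046 and -0.051, each near its SE of 0.052 and 0.050.

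The means of the inducible catalytic subunits lay above 0, but only that of Psmb9 was larger than its SE. Psmb9, the inducible counterpart of Psmb6, had the highest mean of all 47 genes. Its log2 ratios were 0.25, 0.0075, 0.077 and 0.31 on arrays 1 to 4. All 4 values were above 0, although array 2 was barely so. Its mean was 0.16 (SE 0.071, unadjusted limma p 0.069), or 1.12-fold higher in cocaine mice, and without single arrays it lay between 0.12 and 0.26. Psmb9 and Psma1 were the only 2 of the 47 genes above 0 on 4 of 4 arrays, against 6.85% of genes above background.

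Psmb8, the counterpart of Psmb5, and Psmb10, the counterpart of Psmb7, were close to equal. Psmb8 stood at -0.095, -0.014, 0.12 and 0.043, with 2 arrays on each side of 0 and a mean of 0.014 (SE 0.058). Psmb10 stood at 0.023, -0.085, 0.060 and 0.16, with 3 arrays above 0 and a mean of 0.039 (SE 0.059). Without array 3 their means were -0.053 and -0.0043. Psmb11, the form of the thymic cortex, averaged 0.043 (SE 0.057), and 1 of its 2 spots was not above background.

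Within each array the inducible gene was then compared with the constitutive gene that it replaces, in 3 pairs. The difference of log2 ratios of Psmb9 minus Psmb6 was 0.31, 0.22, 0.14 and 0.23, above 0 on 4 of 4 arrays. It averaged 0.23 ± 0.067 (SD, n = 4), with an exact two-sided sign-flip permutation p of 0.125, the smallest that 4 arrays allow, and 0.375 after adjustment over the 3 pairs. In the deposited values, which the loess does not tie, the same difference was 0.23, 0.30, 0.068 and 0.30. Psmb10 minus Psmb7 averaged 0.12 ± 0.21 and was above 0 on 3 of 4 arrays (exact p 0.375). In the deposited values it was 0.77, -0.66, 0.58 and -0.15, above 0 on 2 of 4 arrays, with an average of 0.13 ± 0.66 (exact p 0.875). These deposited values keep the dye bias, which was 1.37 for Psmb10 and 0.83 for Psmb7. Their sign followed the dye of the cocaine RNA, so their spread is not that of the animals alone. Psmb8 minus Psmb5 averaged 0.11 ± 0.21 and was above 0 on 3 of 4 arrays (exact p 0.375), and the deposited values gave 0.11 ± 0.23, also above 0 on 3 of 4 arrays (exact p 0.5). Neither of these 2 pairs was larger than its spread between arrays.

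**Figure D2:**
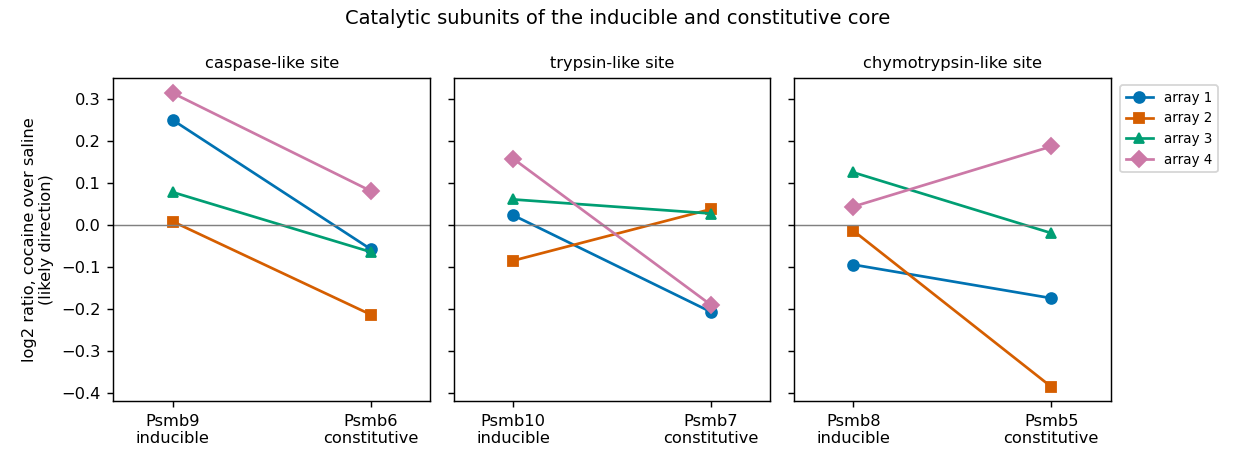
Log2 ratio of cocaine over saline (likely direction) for the inducible catalytic gene (left) and the constitutive gene it replaces (right), with 1 line per array and 1 panel per catalytic site. The line falls from left to right on all 4 arrays for Psmb9 and Psmb6, and on 3 of 4 arrays for the other two pairs.

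The upstream sequences of this pair differ in the motifs they hold. Psmb6 carries the element bound by NFE2L1 and NFE2L2 (TGACNNNGC), the factors that induce proteasome genes when proteasome activity is short, directly before its start site. Psmb9 does not hold it and has a looser form (TGANNNNGC) and an NF-Y box on the opposite strand. These motifs are in capitals. Psmb9 lies on the minus strand at chr17:34187331-34187580 and Psmb6 on the plus strand at chr11:70525107-70525356 (GRCm38.p6).
Psmb9: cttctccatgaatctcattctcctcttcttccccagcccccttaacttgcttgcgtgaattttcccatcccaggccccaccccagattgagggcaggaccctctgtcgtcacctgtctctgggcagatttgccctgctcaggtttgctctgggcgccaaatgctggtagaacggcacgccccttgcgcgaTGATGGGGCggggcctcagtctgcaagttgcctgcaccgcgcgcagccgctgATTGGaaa
Psmb6: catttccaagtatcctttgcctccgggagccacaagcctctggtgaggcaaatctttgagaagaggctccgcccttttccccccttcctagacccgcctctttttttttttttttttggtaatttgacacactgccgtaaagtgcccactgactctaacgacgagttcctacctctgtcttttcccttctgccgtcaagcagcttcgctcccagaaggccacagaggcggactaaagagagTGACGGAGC

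The TGACNNNGC element was found in 5 of 39 proteasome genes (12.8%), namely Psmb5, Psmb6, Psmc6, Psmd9 and Psmd12, against 12% of protein-coding genes. The looser form, which every match of the stricter one also fits, was found in 38.5% of proteasome genes and 38.9% of protein-coding genes. Both shares were near the background in this window. A STAT element (TTCNNNGAA) was found in Psmb8 and Psmg1, or 5.13% against 7.65% of protein-coding genes, and the longer ETS form GGAAGTG in 12.8% against 10.5% of protein-coding genes. The longer NFE2L1 element was found in Psmd12 alone (2.56% against 2.49% of protein-coding genes), and the heat shock element in 0 of 39 genes against 0.452% of protein-coding genes.

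Psmb8 and Psmb9 lie beside Tap1 and Tap2, which encode the peptide transporter of antigen presentation, in the gene order of GRCm38.p6. Tap1 and Tap2 had means of -0.031 (SE 0.053) and -0.13 (SE 0.075), below 0 where that of Psmb9 was above. Tap1 stood at 0.031, -0.093, -0.093 and 0.032, higher on arrays 1 and 4, as was Psmb9. Tap2 stood at -0.29, -0.24, 0.019 and -0.0061, lowest on arrays 1 and 2. Whether these neighbours vary with Psmb9 was not tested. Of 17 measured genes of antigen presentation and the interferon response 14 were above 0, with a median of 0.16, and B2m, the light chain of class I molecules, was at 0.20 (SE 0.072, unadjusted limma p 0.035). An unadjusted limma p under 0.05 occurred in 6 of the 17 on the higher side, against 0.849% of all genes, and in 0 on the lower side. None passed after adjustment. The list was chosen with earlier results of these data known, so these counts are no test of it. Cxcl10, with the smallest p of the list (unadjusted limma p 0.0081), stood at 0.78, 0.21, 0.40 and 0.99, the array order of Psmb9. The tie of the loess allows few array orders, so a shared order carries little weight. Ifit1, Isg15 and Bst2 were highest on array 2, where Psmb9 was lowest. The medians of the list were 0.17, 0.28, 0.13 and 0.024 on arrays 1 to 4, lowest on array 4, where Psmb9 was highest. The markers of microglia, which can carry inducible subunits, were below 0 in 6 of 10 measured genes, with medians of -0.097, -0.040, 0.046 and 0.053 on arrays 1 to 4. Their part in the Psmb9 value was not tested.

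The activators open the core without ATP, and the assembly genes build it. In this class 5 of 8 genes were below 0 and the median was -0.034, or 6 of 8 and -0.046 with each array centred on its median. Psme1, a subunit of the interferon-induced activator, stood at -0.046, -0.11, 0.061 and 0.12, with 2 arrays on each side of 0. Its mean was 0.0062 (SE 0.060), which changed sign with the scaling. Psme3, the nuclear relative, stood at -0.19, -0.12, 0.085 and 0.0035 (mean -0.056, SE 0.066, unadjusted limma p 0.43). Psme4, the large single-chain activator, stood at 0.023, 0.15, -0.017 and -0.15 (mean 0.0026, SE 0.065). Psmf1, an inhibitor of the core in biochemical assays, stood at 0.0054, -0.13, -0.11 and 0.035 (mean -0.051, SE 0.055, unadjusted limma p 0.40).

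The chaperones Psmg1 to Psmg4 guide the assembly of the alpha ring. Psmg1 had the lowest mean of the class, at -0.085 (SE 0.062, unadjusted limma p 0.22), with -0.20, -0.15, 0.030 and -0.019 on the arrays. Its partner Psmg2 stood at -0.14, -0.041, 0.092 and 0.012 (mean -0.018, SE 0.058). The arrays kept the same order in both partners, but the tie of the loess allows few orders, here and for Psmg3. Psmg3 stood at -0.14, -0.36, -0.0015 and 0.21 (mean -0.073, SE 0.10), the array order of Psmb5. Its partner Psmg4 had the highest mean of the class, at 0.029 (SE 0.067), with 0.12, -0.098, -0.062 and 0.16. Groups of arrays above and below 0 were mixed for all 4 chaperones.

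Genes that feed or regulate the proteasome did not share the sign of the cap. Of 21 measured genes of this kind 8 were below 0 and 13 above, with a median of 0.031, and none had an unadjusted p under 0.05 with limma. Nfe2l1, the factor that induces proteasome genes, stood at -0.030, -0.19, -0.088 and 0.062 (mean -0.062, SE 0.061), and its mean was 0.039 without array 2. Nploc4, a cofactor of the segregase Vcp, was below 0 on 4 of 4 arrays, at -0.087, -0.16, -0.11 and -0.038 (mean -0.099, SE 0.049, unadjusted limma p 0.098). Ubqln2, which shuttles ubiquitinated proteins to the proteasome, stood at 0.19, 0.21, 0.021 and -0.0023 (mean 0.10, SE 0.062, unadjusted limma p 0.15). Nfe2l2, the oxidative stress factor, was above 0 on 4 of 4 arrays, with a mean of 0.083 (SE 0.052, unadjusted limma p 0.17). Pomp, the maturation factor of the core, was at -0.024 (SE 0.058).

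The cap genes differed between arrays more than the other classes. Their median was -0.24, -0.040, 0.070 and -0.12 on arrays 1 to 4, and 18, 13, 5 and 18 of 20 genes were below 0 on these arrays, against 54.0%, 53.4%, 47.3% and 48.4% of the genes above background. The core medians were smaller, at -0.058, -0.030, 0.030 and -0.017. Those of the activator or assembly genes were -0.091, -0.11, 0.014 and 0.024. The most frequent sign pattern was below 0 on arrays 1, 2 and 4 and above 0 on array 3. It held for 15 of 47 proteasome genes, 10 of them in the cap, against 8.97% of genes above background. A further 7 genes were below 0 on arrays 1 and 4 and above 0 on arrays 2 and 3, against 11.4%. These patterns were picked after the values were seen.

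Cytosolic heat shock chaperones, which share the work of protein quality control, had medians of -0.17, 0.17, 0.11 and -0.13, and so were below 0 on arrays 1 and 4 like the cap but well above 0 on array 2. Their median over 16 genes was -0.0075. The 69 ribosomal protein genes had array medians between -0.021 and 0.010, and the 86 respiratory chain genes between -0.089 and 0.044. In these lists 40 and 49 genes were below 0, or 58.0% and 57.0%. The cap therefore had the lowest median on array 1 among the classes and lists named here. The mice, their RNA, the labelling and the hybridization cannot be told apart between arrays.

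**Figure D3:**
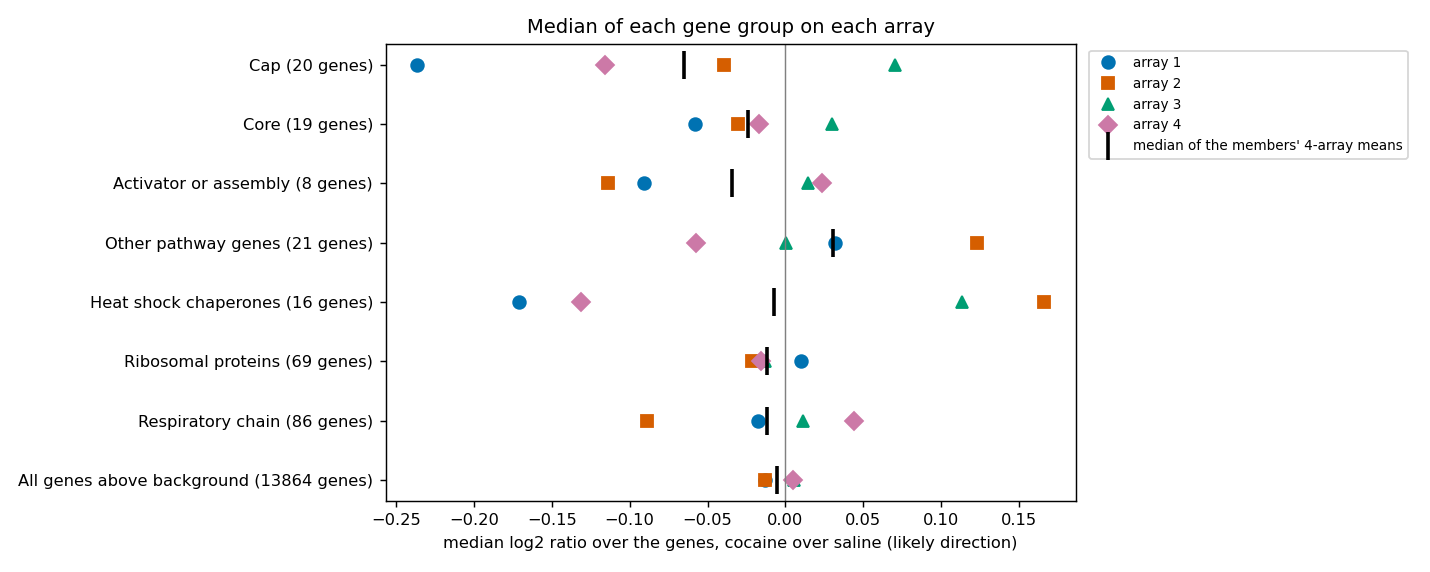
Median log2 ratio of cocaine over saline (likely direction) over the genes of each group, on each of the 4 arrays (coloured symbols), with the median of the genes' 4-array means as a black bar. The cap ranges from -0.24 on array 1 to 0.070 on array 3, while the ribosomal protein genes stay between -0.021 and 0.010.

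**Figure D4:**
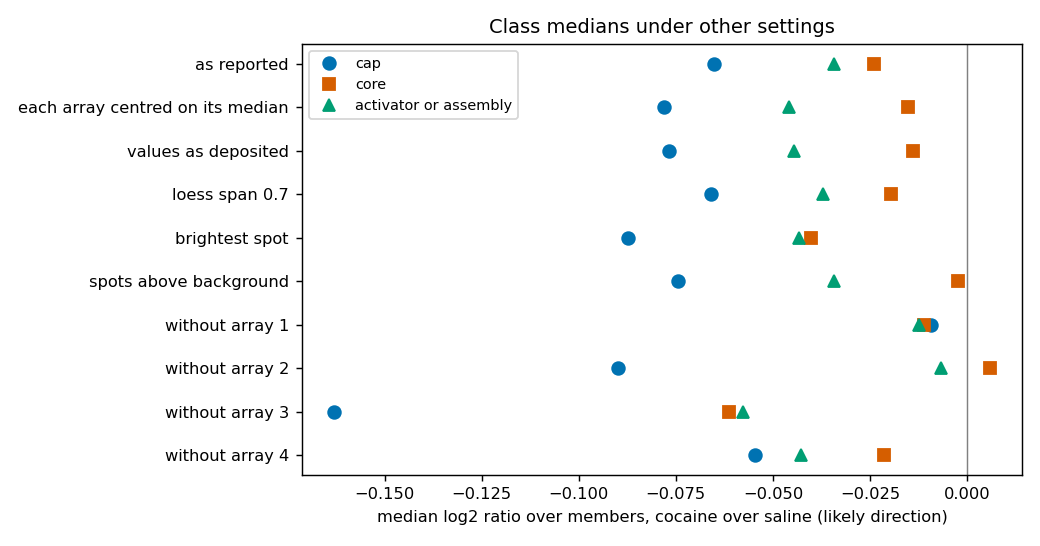
Median log2 ratio of cocaine over saline (likely direction) over the cap, core, and activator or assembly genes as reported and under 9 other settings. The cap median is below 0 in each setting drawn, and lies between -0.16 without array 3 and -0.0092 without array 1. The core median is above 0 without array 2.

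Across settings the order of the 3 classes was not fixed, as the plot of class medians by setting shows. The cap had the lowest median as reported, with other scalings and without arrays 2, 3 or 4. Without array 1 the medians of cap, core and activator or assembly genes were -0.0092, -0.011 and -0.012.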

How the data were processed

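The members and the gene lists were chosen with earlier results of these data known. The deposited table holds log2 ratios for 45220 spots, with Feature Extraction as the tool named per the submitters' processing notes; its version and other steps are not given in the sources used here. On array 3, 98.1% of 5000 values equalled log2 of some whole-number ratio (tolerance 2e-13), against 0.22% for base 10, so base 2 was taken. Which treatment is the numerator is not stated. The deposited medians were 0.33, -0.25, 0.48 and -0.56 on arrays 1 to 4. The 202 spots at 0 on all arrays were left out. Each array was normalised by loess (span 0.3) on the averaged dye bias. Spots were called above background where that bias exceeded 0.115, which is 3 SDs above the mode of dim spots, a stand-in, since intensities were not used here. Symbols came from the platform annotation, in which 33653 probes had 1 symbol, 56 several and 11511 none. All 74 proteasome probes matched a RefSeq gene by identifier. Spots of 1 gene were averaged. limma 3.58.1 in R 4.3.3 fitted a treatment and a dye term (5.21 degrees of freedom in total) and was tested on simulated data. The 4 arrays limit the precision.

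Genes named with array values were the 3 smallest p and both extremes of each class, the catalytic subunits, the Psme, Psmf and Psmg genes, and in the pathway list the 3 smallest p and Nfe2l1. The array values of Psma1, Psmc3, Psmd1, Psmd13, Cxcl10, Tap1 and Tap2 and the other genes named were chosen after they were seen. The 250 bases before each start site in the RefSeq promoter table were searched for 9 motifs, chosen after the log2 ratios were seen; 39 of 47 genes had an entry. Alternatives were other scalings, no dye term, single spots, spots above background, other variance settings, the reverse dye reading and leaving out each array.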

Additional observations from a re-analysis of the deposited data

Results flagged for a closer look

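The 25 genes followed across settings and the 3 class medians were searched for an array lying apart from the rest of its group, and 0 of these 28 groups stood out. The loess ties the 4 values of a gene, so an array far below the mean is mirrored by another about as far above it. A single array of a gene therefore cannot lie apart, and the search was not able to flag one. The class medians are taken over such tied values. No conclusion is drawn from the 0.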

How the results depend on the processing

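No proteasome gene passed under 11 of the 12 alternatives, the exception being the columns read as Cy5 over Cy3. Over all features, centring the arrays on their medians gave 18 calls, with 0 proteasome genes among them. Under the Cy5 over Cy3 reading the dye effect is tested in place of treatment. There 24477 features and 43 proteasome genes passed, 2 core, 0 cap and 0 activator or assembly genes were below 0, and the medians were 0.88, 0.70 and 0.77. The means of genes below 0 in the report were then 1.005 for Nfe2l1, 0.75 for Nploc4, 0.79 for Psma4, 0.92 for Psma6, 0.90 for Psmb1, 0.87 for Psmb5, 0.96 for Psmb6, 0.43 for Psmb7, 0.73 for Psmc4, 0.70 for Psmc5, 0.55 for Psmd4, 0.87 for Psme3, 0.30 for Psmf1, 0.78 for Psmg1, 0.61 for Psmg2 and 0.86 for Psmg3. Psme1 changed sign to -0.0015 with arrays centred on their medians and to -0.00033 with values as deposited. Leaving out single arrays moved the core median between -0.061 and 0.0058, the cap median between -0.16 and -0.0092, and the activator or assembly median between -0.058 and -0.0067. Cap genes below 0 then numbered 13 to 18, core genes 9 to 13 and activator or assembly genes 5 to 7. In these fits the sign changed for some genes, with ranges of -0.087 to 0.039 (Nfe2l1), -0.0043 to 0.13 (Psmb10), -0.18 to 0.060 (Psmb5), -0.097 to 0.040 (Psmb6), -0.053 to 0.070 (Psmb8), -0.0062 to 0.14 (Psmc6), -0.046 to 0.086 (Psme1), -0.14 to 0.015 (Psme3), -0.064 to 0.080 (Psme4), -0.069 to 0.038 (Psmg2), -0.16 to 0.083 (Psmg3) and -0.015 to 0.10 (Psmg4). The cause was not tested. In each such fit 1 dye orientation keeps a single array, which then has the weight of the other pair. No paired analysis was possible because each array is 1 ratio of a single group. The 4 arrays limit the precision, with a median SE of 0.066 for a proteasome gene.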

Other observations

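Of the 20 proteasome genes with more than 1 spot, 8 had spots whose means disagreed in sign. Psmd7 had the widest range, from -0.20 to 0.096 over 3 spots, followed by Psmd14 (-0.16 to 0.098) and Psmc5 (-0.40 to -0.15). Psma4, Psmc6 and Psmb8 had spots within 0.0060, 0.016 and 0.021 of each other. Of the 74 proteasome spots 7 were not above background, and these belonged to Psma2, Psmb11, Psmd9, Psmd11, Psmd14 and Psme4.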
